A study of Mus musculus with 6 samples.

Results

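Toll-like receptors (Tlr) and Cd14 were followed in bulk RNA from the livers of tumor-bearing mice. The set was chosen by symbol as Tlr1 to Tlr9 and Cd14. Of these 10 symbols, 9 were among the 20140 genes of the count table, and all 9 passed the filter on low counts. Tlr9 was not analysed here. Livers were taken on day 21 from 3 groups, with 2 livers per group. Sham mice received PBS and no tumor cells, and the labels call this group control. The other groups received CT26 cells and are labelled intra-C and intra-S. CT26 is a mouse colorectal carcinoma line, and the study's models are orthotopic implantation into the cecum, which is its premetastatic model at this time, and injection into the spleen, which seeds liver metastases. The labels do not spell out either abbreviation, so this reading rests on the description of the models, in BALB/c mice with no engineered allele. Tumor route and disease stage changed together, and the labels gave neither age nor sex. The labels give the cell type as all liver cells, so each value sums over hepatocytes, immune and vascular cells and, where present, CT26 cells, whose transcripts come from the same genome. In such bulk RNA, more cells of a type and more RNA per cell cannot be told apart.

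Toll-like receptors are membrane proteins that recognize conserved microbial molecules and some products of damaged tissue. Tlr4 with its partner Ly96 (MD-2) senses lipopolysaccharide, which Lbp carries to Cd14 and Cd14 hands over to the receptor. Tlr2 pairs with Tlr1 or Tlr6 to sense lipopeptides, and Tlr5 senses flagellin. These receptors meet their ligands at the cell surface. Tlr3, Tlr7, Tlr8 and Tlr9 are grouped as the endosomal receptors for nucleic acids. Most of these receptors signal through the adaptor Myd88 to NF-kB and interferon regulatory factors, whereas Tlr3 uses Ticam1 (TRIF) and Tlr4 uses both. In the liver, which drains the gut, Kupffer cells, other myeloid cells and endothelial cells are known to carry them.

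Sequence from before the gene is shown for Tlr8, which rose, and Tlr5, which fell. Of the 6 members that changed, Cd14 was not examined for such sequence. Among the others, Tlr8 and Tlr5 were those with 200 or more bases of a RefSeq promoter entry outside the annotated gene. Each run ends at the last base before the RefSeq gene in build GRCm38.p6 and is written 5′ to 3′ on the strand of the gene, with letters in capitals where a searched motif matched. It holds 250 bases for Tlr8 and 214 for Tlr5, whose entry runs 36 bases into the gene, and these 36 are left out.
Tlr8 (chrX:167264330-167264579, minus strand): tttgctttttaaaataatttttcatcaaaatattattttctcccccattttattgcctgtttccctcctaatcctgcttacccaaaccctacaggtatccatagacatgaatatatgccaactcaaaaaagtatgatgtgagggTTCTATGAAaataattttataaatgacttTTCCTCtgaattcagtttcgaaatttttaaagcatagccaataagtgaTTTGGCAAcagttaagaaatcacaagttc
Tlr5 (chr1:182954538-182954751, plus strand): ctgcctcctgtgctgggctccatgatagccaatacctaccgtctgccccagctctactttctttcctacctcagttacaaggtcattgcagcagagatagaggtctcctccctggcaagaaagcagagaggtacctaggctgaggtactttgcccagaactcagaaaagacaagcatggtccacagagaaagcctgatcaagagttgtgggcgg
Both strands were searched for 5 motifs. They were an NF-kB type (GGGNNNNNCC), a STAT type (TTCNNNGAA), a C/EBP type (TTGCNNAA), a PU.1 type (GAGGAA) and an interferon response type (GAAANNGAAA). Tlr8 held the STAT type letters 106 bases, the PU.1 type letters 77 bases and the C/EBP type letters 29 bases before the gene, with no overlap among them. Those letters were found in 7.02%, 23.3% and 9.56% of the 32851 promoter entries of RefSeq, read over 250 bases before the start that each entry lists. The NF-kB type letters (45.8% of entries) and the interferon response type letters (2.98%) were not in the Tlr8 window. None of the 5 was in the shorter window of Tlr5, and over 214 bases they were found in 40.2%, 6.12%, 8.58%, 19.9% and 2.57% of entries, in the order named above. A match, or its absence, describes letters only.

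The counts of the 6 livers summed to between 32838321 and 43368309. All fold changes below come from edgeR's quasi-likelihood test in 1 fit over the 6 livers, with p-values adjusted by Benjamini-Hochberg over the 16370 genes tested, and a gene was called at an adjusted p under 0.05. Levels of 1 gene across livers are given as CPM, which are counts scaled by the library total after edgeR's TMM correction, and levels of different genes are compared as TPM, the authors' values that also account for gene length. In intra-C livers 4.92% of the tested genes were called higher and 2.38% lower than in sham livers, and in intra-S livers 6.78% and 3.95%. Without TMM scaling the split turned from 806 higher and 389 lower genes to 569 and 801 in intra-C livers, and from 1110 and 646 to 838 and 1115 in intra-S livers. The labels do not say that same-group livers came from separate mice, so the p-values measure the spread between these livers. All 6 hepatocyte markers were detected in every liver, and Alb alone stood at 99067 TPM in the sham mean.

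Against this background, 5 of the 9 members were higher and 1 was lower in the intra-C livers than in the sham livers, and the counts were the same in the intra-S livers. Cd14, Tlr8, Tlr7, Tlr4 and Tlr2 rose, Tlr5 fell, and Tlr1, Tlr6 and Tlr3 did not pass the test in either comparison. Both comparisons use the same sham livers. The median log2 fold change of the 9 members was 1.64 in the intra-C and 1.70 in the intra-S livers, against 0.01 and 0.04 over all tested genes. Both livers lay above both sham livers for 8 members in intra-C, where this held for 34.4% of tested genes, and for 7 members in intra-S, where it held for 30.4%. Both livers lay below both sham livers for 1 member, Tlr5, in each comparison, against 34% and 30% of tested genes.

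**Figure D1:**
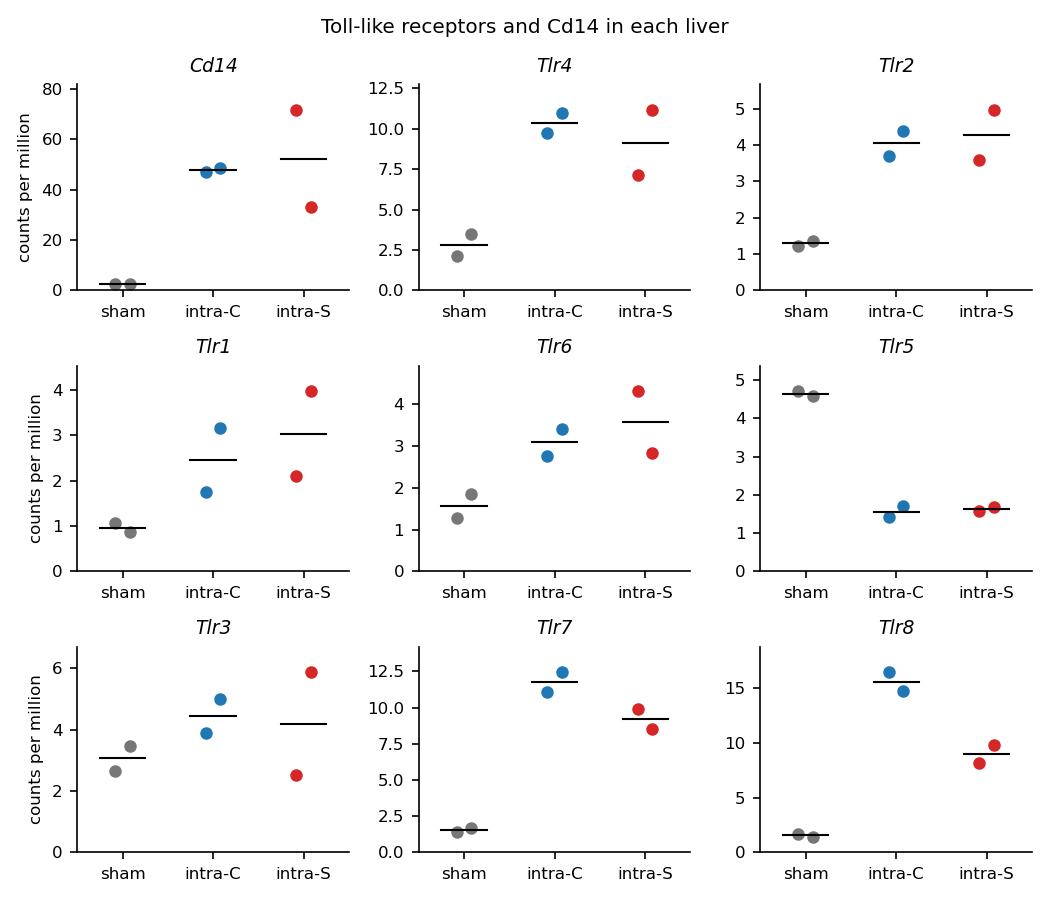
CPM of each of the 9 members (vertical axes, linear, starting at 0 and scaled to each gene) in the sham, intra-C and intra-S groups; each point is 1 liver and each line the mean of 2 livers. The sham values of Cd14 are 2.51 and 2.65 CPM, those of the tumor-bearing livers lie between 33.0 and 71.6 CPM, and Tlr5 is the member whose sham livers lie on top.

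Cd14, the co-receptor that presents lipopolysaccharide to Tlr4, showed the largest change of the members. The gene lies on chromosome 18 of GRCm38.p6 from 36725064 to 36726815. It measured 2.51 and 2.65 CPM in the sham livers, 47.0 and 48.5 CPM in intra-C livers, and 71.6 and 33.0 CPM in intra-S livers. The sham and intra-C livers were each close together, the intra-S livers lay on either side of the intra-C livers, and no tumor-bearing liver overlapped with the sham livers. The increase was 18.5-fold in the intra-C livers (log2 fold change 4.21, SE 0.40, adjusted p = 0.00702 from edgeR) and 20.2-fold in the intra-S livers (4.34, SE 0.41, adjusted p = 0.00578). Of all tested genes, 1.53% and 1.95% had a larger log2 fold change. With sham 1 or sham 2 left out, the intra-C change of 4.18 or 4.25 had an edgeR adjusted p of 0.120 or 0.118, and with intra-C 1 or intra-C 2 left out it was 4.23 or 4.21 with an adjusted p of 0.0539 or 0.0577. The intra-S call was lost without either sham liver (4.31 and 4.38, edgeR adjusted p = 0.0933 and 0.0893), and over all 16 alternative settings the intra-S change lay between 3.60 and 4.79. The size depended on the liver, at 3.68 without intra-S 1 and 4.79 without intra-S 2, with edgeR adjusted p of 9.75e-05 and 6.58e-05.

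Tlr4, the lipopolysaccharide receptor that Cd14 serves, also rose, but far less. The gene lies on chromosome 4 from 66827551 to 66846581. Its levels were 2.12 and 3.51 CPM in the sham livers, 9.75 and 10.98 CPM in intra-C livers, and 7.12 and 11.1 CPM in intra-S livers. Both groups with CT26 cells were clear of the sham livers and overlapped with each other. The increase was 3.68-fold in the intra-C livers (log2 fold change 1.88, SE 0.36, edgeR adjusted p = 0.0349) and 3.24-fold in the intra-S livers (1.70, SE 0.36, adjusted p = 0.0353). As TPM, Cd14 exceeded Tlr4 by 5.63 and 3.59 times in the sham livers, by 22.9 and 21 times in the intra-C livers, and by 47.8 and 14.1 times in the intra-S livers. The ratio in every tumor-bearing liver was thus above that in both sham livers. The Tlr4 calls were near the threshold. Over 16 alternative settings the edgeR, DESeq2 and limma adjusted p lay between 0.000192 and 0.236 in the intra-C and between 0.000819 and 0.231 in the intra-S livers, and the call was lost without TMM scaling, on TPM values, for intra-S with only the 2 groups compared, and without sham 1, sham 2, intra-C 1 or intra-C 2 (changes of 1.57, 2.29, 1.96 and 1.82 in the intra-C livers and 1.38, 2.104, 1.70 and 1.71 in the intra-S livers).

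Tlr2, the shared partner of the lipopeptide receptors, followed with a similar size. It lies on chromosome 3 from 83836272 to 83841824. It measured 1.23 and 1.36 CPM in the sham livers, 3.69 and 4.39 CPM in intra-C livers, and 3.59 and 4.96 CPM in intra-S livers. No tumor-bearing liver reached down to the sham level. The increase was 3.11-fold in the intra-C livers (log2 fold change 1.64, SE 0.33, edgeR adjusted p = 0.0396) and 3.29-fold in the intra-S livers (1.72, SE 0.33, adjusted p = 0.0291). These values rest on 50 and 60 counts in the sham livers and 123 to 202 counts in the others. The call was lost in intra-C livers with livers of the same number as a replicate block (edgeR adjusted p = 0.0525), where that of Tlr4 was kept. It was also lost without TMM scaling, on TPM values, for intra-S with only the 2 groups compared, and without sham 1, sham 2, intra-C 1 or intra-C 2, where the changes were 1.58, 1.71, 1.76 and 1.53 in the intra-C livers and 1.66, 1.79, 1.72 and 1.73 in the intra-S livers. Over the 16 settings the adjusted p, from edgeR, DESeq2 or limma, lay between 0.00126 and 0.271 in the intra-C livers and between 0.000515 and 0.207 in the intra-S livers.

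Tlr1 and Tlr6, the receptors that pair with Tlr2, were higher in every tumor-bearing liver than in the sham livers but did not pass the test. They are neighbors on chromosome 5, Tlr1 from 64924680 to 64933600 and Tlr6 from 64953092 to 64970942. Tlr1 measured 1.06 and 0.860 CPM in the sham livers, 1.76 and 3.16 CPM in intra-C livers, and 2.1 and 3.97 CPM in intra-S livers. Within each tumor-bearing group its livers differed by more than the lower of them differed from the sham livers. The log2 fold changes were 1.35 (SE 0.50, edgeR adjusted p = 0.147) and 1.66 (SE 0.50, adjusted p = 0.0838). Tlr6 measured 1.28 and 1.86 CPM in the sham livers, 2.78 and 3.40 CPM in intra-C livers, and 4.32 and 2.85 CPM in intra-S livers. Its log2 fold changes were 0.97 (95% confidence interval 0.04 to 1.91, edgeR adjusted p = 0.170) and 1.19 (0.25 to 2.12, adjusted p = 0.10). Tlr1 was called in the intra-S livers with DESeq2 (adjusted p = 0.0278). Its intra-S change was 2.05 without intra-S 1, where it was called, and 1.13 without intra-S 2, where it was not. In the intra-C livers Tlr1 was called without intra-S 1 (1.35). Its intra-C change was 1.72 without intra-C 1 and 0.90 without intra-C 2, with no call. The intra-S change of Tlr6 was 1.46 without intra-S 2, where it was called, and 0.86 without intra-S 1, where it was not. In the intra-S group Tlr1 was higher in liver 2 and Tlr6 in liver 1. Only uniquely mapped reads were counted, and 15.4% of the 50-base stretches of the Tlr1 transcripts and 12.3% of those of the Tlr6 transcripts also occur in transcripts of other genes, most of them in each other, so the level of either is uncertain by reads lost there.

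Tlr5, the flagellin receptor, was the 1 member that fell. It lies on chromosome 1 from 182954752 to 182976044. Its levels were 4.71 and 4.57 CPM in the sham livers, 1.43 and 1.70 CPM in intra-C livers, and 1.57 and 1.69 CPM in intra-S livers. The livers of each group were tightly placed, and the 4 tumor-bearing livers shared 1 narrow range. The level was 2.97-fold lower in the intra-C livers (log2 fold change -1.57, SE 0.32, edgeR adjusted p = 0.0402) and 2.83-fold lower in the intra-S livers (-1.50, SE 0.32, adjusted p = 0.0359). The counts behind these values were 191 and 202 in the sham livers and 54 to 69 in the others. The call was lost in both comparisons with a replicate block (edgeR adjusted p = 0.0642 in intra-C and 0.0568 in intra-S livers), for intra-S with only the 2 groups compared, and in both comparisons without sham 1, sham 2, intra-C 1 or intra-C 2, where the change was -1.54, -1.59, -1.44 and -1.68 in the intra-C livers and -1.48, -1.53, -1.50 and -1.49 in the intra-S livers. Over the 16 alternatives the adjusted p, from edgeR, DESeq2 or limma, lay between 0.00114 and 0.277 in the intra-C livers and between 0.00151 and 0.232 in the intra-S livers, with the direction kept.

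Among the endosomal receptors, Tlr7, a sensor of single-stranded RNA and its breakdown products, and Tlr8 rose. Tlr3, the sensor of double-stranded RNA, did not pass the test. Tlr7 and Tlr8 are neighbors on chromosome X, from 167303380 to 167330574 and from 167241123 to 167264329. Tlr7 measured 1.40 and 1.68 CPM in the sham livers, 11.1 and 12.4 CPM in intra-C livers, and 9.89 and 8.49 CPM in intra-S livers. The 3 groups were fully separate, with the intra-C livers on top. The increase was 7.62-fold (log2 fold change 2.93, SE 0.26, edgeR adjusted p = 0.00702) in the intra-C and 5.95-fold (2.57, SE 0.26, adjusted p = 0.00620) in the intra-S livers. Without sham 1, sham 2 or intra-C 2 the intra-C change was 2.81, 3.06 or 2.87 with an adjusted p of 0.120, 0.114 or 0.0574 from edgeR, and without sham 1 or sham 2 the intra-S change was 2.46 or 2.70 with an adjusted p of 0.0958 or 0.0893.

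Tlr8 measured 1.70 and 1.43 CPM in the sham livers, 16.4 and 14.7 CPM in intra-C livers, and 8.14 and 9.81 CPM in intra-S livers. These groups were fully separate too. The increase was 9.94-fold (log2 fold change 3.31, SE 0.26, edgeR adjusted p = 0.00580) in the intra-C livers and 5.74-fold (2.52, SE 0.26, adjusted p = 0.00628) in the intra-S livers. Without sham 1 or sham 2 the changes were 3.45 and 3.19 in the intra-C livers and 2.66 and 2.40 in the intra-S livers, with adjusted p between 0.0928 and 0.114 from edgeR. Outside the leave-out settings, Cd14, Tlr7 and Tlr8 were called under each alternative tried in both comparisons. The size of the change depended on the scale. With limma on log2(TPM + 1) it was 1.68 and 1.31 for Tlr7 and 2.02 and 1.29 for Tlr8 in the intra-C and intra-S livers.

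Tlr3 lies on chromosome 8 from 45395665 to 45411075. It measured 2.66 and 3.46 CPM in the sham livers, 3.87 and 4.98 CPM in intra-C livers, and 2.51 and 5.86 CPM in intra-S livers. The intra-S livers lay on either side of the sham livers. The log2 fold changes were 0.53 (95% confidence interval -0.56 to 1.62, edgeR adjusted p = 0.498) and 0.45 (-0.63 to 1.54, adjusted p = 0.539), so that changes of the size seen for Tlr4 in the intra-C livers lay outside the first interval. An antisense gene, Gm45542, overlaps 7.32% of the exonic bases of Tlr3, and whether counting used strand is not stated.

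**Figure D2:**
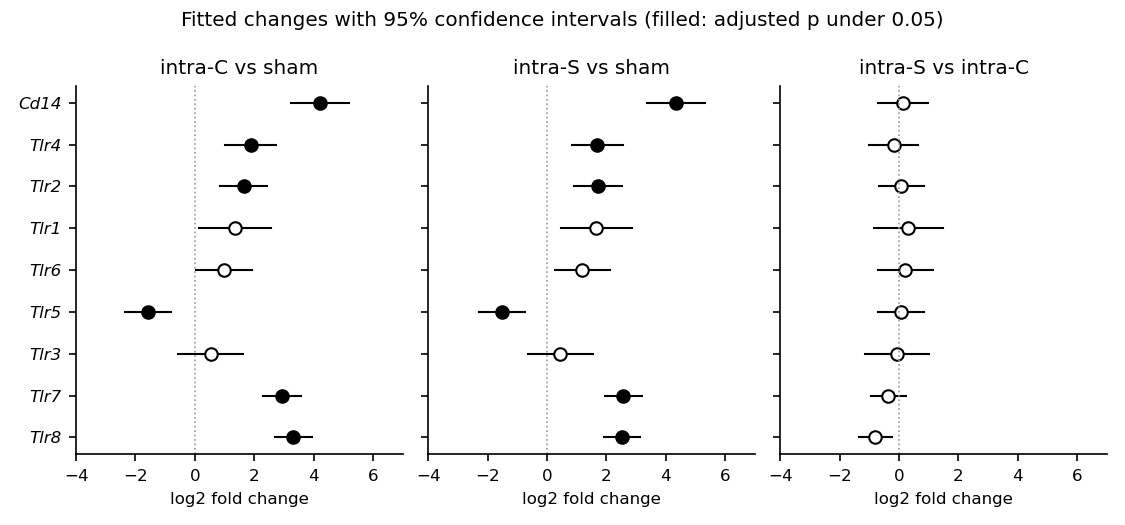
Log2 fold changes of the 9 members (rows) in the 3 comparisons (panels), with 95% confidence intervals from edgeR's quasi-likelihood fit as lines; filled points have an adjusted p under 0.05. The same 6 members are filled in both comparisons with sham, with Tlr5 at -1.57 and -1.50 on the negative side, and none is filled between intra-S and intra-C.

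Between the intra-S and intra-C livers none of the 9 members was called, and neither was any other gene (0% of the 16370 tested, edgeR), although before adjustment 1144 higher and 1049 lower genes had a p under 0.05. With DESeq2, 234 genes passed as higher and 272 as lower. Tlr8 had the largest difference among the members, with a log2 fold change of -0.79 (95% confidence interval -1.36 to -0.22, unadjusted p = 0.0138, edgeR adjusted p = 0.302). It was the 1 member with an unadjusted p under 0.05. Tlr7 had a value of -0.36 (-0.93 to 0.22, edgeR adjusted p = 0.534). Tlr7 and Tlr8 were also the 2 members whose intra-S livers both lay below both intra-C livers, which held for 21.5% of tested genes. No member had both intra-S livers on top, which held for 21.9%. The other differences lay between -0.18 for Tlr4 and 0.31 for Tlr1, with wide intervals, such as -0.71 to 0.97 for Cd14. Without intra-S 2, Tlr8 (-0.94, edgeR adjusted p = 0.0408) and Cd14 (0.58, adjusted p = 0.0419) were called in a fit that called 1312 genes higher and 1572 lower, and without intra-S 1 the Cd14 difference was -0.53.

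On the TPM scale the order of the receptors turned over. In the sham livers Cd14 (3.49 TPM) was followed by Tlr5 (1.79 TPM), which stood clear of the next receptor, Tlr3 (1.36 TPM). Below it, Tlr3 and Tlr6 overlapped with each other, and Tlr2, Tlr4, Tlr8, Tlr7 and Tlr1 each overlapped with its neighbor down to 0.606 TPM for Tlr1. In the intra-C livers Tlr8 (5.69 TPM), Tlr7 (4.21 TPM) and Tlr4 (2.60 TPM) came after Cd14 (56.8 TPM) without overlap, Tlr4, Tlr2, Tlr6, Tlr3 and Tlr1 overlapped in sequence, and Tlr5 was last at 0.531 TPM. In the intra-S livers Tlr8 (3.06 TPM) and Tlr7 (3.03 TPM) overlapped, and Tlr7 but not Tlr8 was clear of Tlr2 (2.34 TPM). Tlr2, Tlr4, Tlr6, Tlr1 and Tlr3 overlapped in sequence, and Tlr5 was again last at 0.514 TPM. Tlr5 thus went from the highest to the lowest of the 8 receptors in both groups.

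The summed level of the 8 receptors was 7.32 and 8.37 TPM in the sham livers, 18.7 and 22.3 TPM in the intra-C livers, and 14.2 and 18.4 TPM in the intra-S livers. Tlr7 and Tlr8 together made up 17.5% and 15.2% of that sum in the sham livers, 51.6% and 45.5% in the intra-C livers, and 41.1% and 34.5% in the intra-S livers. The share of Tlr5 was 24.8% and 21.03% in the sham livers and between 2.50% and 3.37% in the others. The shares did not overlap between the sham livers and either tumor-bearing group.

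**Figure D3:**
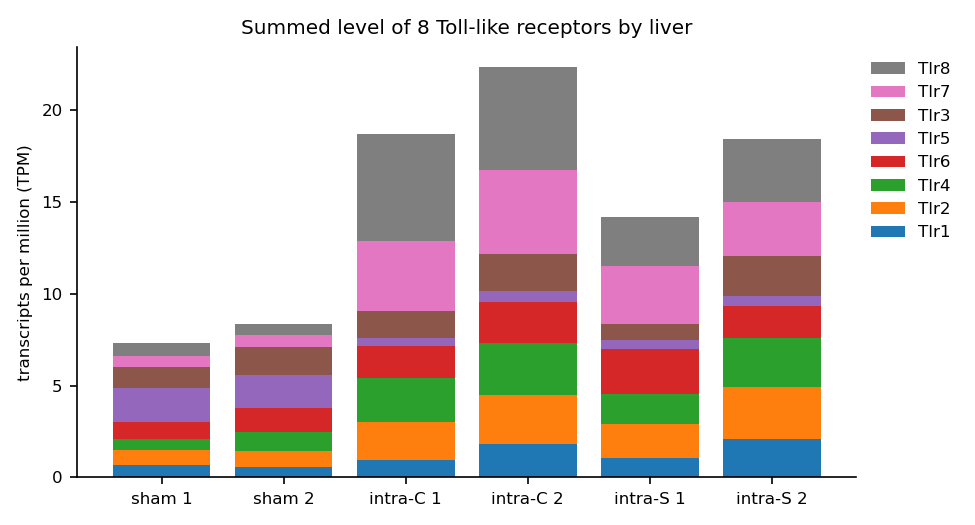
Stacked TPM of 8 Toll-like receptors (vertical axis, starting at 0) in each of the 6 livers; each color is 1 receptor. The bars reach 7.32 and 8.37 TPM in the sham livers and 14.2 to 22.3 TPM in the others, where Tlr7 and Tlr8 on top make up 34.5% to 51.6% of a bar.

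Transcripts of some proteins that bring ligands to these receptors were higher. Of 4 tested delivery and co-receptor genes, 2 were higher in both comparisons and none lower. Lbp, the serum protein that carries lipopolysaccharide to Cd14, measured 76.0 ± 3.53 CPM in sham, 508 ± 40.1 CPM in intra-C and 401 ± 2.60 CPM in intra-S livers (SD, n = 2 each), with log2 fold changes of 2.74 and 2.40 and edgeR adjusted p of 0.00580 and 0.00578. Ly86 (MD-1), the partner of the Tlr4 homolog Cd180, rose by 2.14 and 2.39 on the log2 scale (edgeR adjusted p = 0.0149 and 0.00912). Ly96, which Tlr4 needs to bind lipopolysaccharide, had values of 0.34 (SE 0.46) and 0.93 (SE 0.46) with edgeR adjusted p of 0.675 and 0.227. Of 4 further receptors of the family, only Tlr13, an endosomal sensor of bacterial ribosomal RNA, was called, with log2 fold changes of 4.002 (SE 0.38) and 4.12 (SE 0.38) and edgeR adjusted p of 0.00702 and 0.00578. Its mean was 0.753 ± 0.329 CPM in sham, 12.1 ± 2.39 CPM in intra-C and 13.1 ± 1.32 CPM in intra-S livers.

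Of 8 genes that move or process the endosomal receptors, the proteases Ctss and Lgmn were higher in both comparisons. Ctss had log2 fold changes of 2.76 and 2.82 (edgeR adjusted p = 0.00738 and 0.00614) and Lgmn of 2.37 and 2.42 (adjusted p = 0.00702 and 0.00578). Unc93b1, the chaperone that takes these receptors to endosomes, had values of 0.35 (SE 0.19) and 0.24 (SE 0.19) with edgeR adjusted p of 0.279 and 0.434. The receptors Tlr7, Tlr8 and Tlr13 and these proteases were thus called, and the chaperone was not.

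Some genes of the signaling chain below the receptors were called. Of 6 adaptors, 3 were higher in the intra-C livers (Myd88, Pik3ap1 and Ticam2) and 1 in the intra-S livers (Ticam2). Myd88 had log2 fold changes of 0.96 (SE 0.21, edgeR adjusted p = 0.0476) and 0.38 (SE 0.21, adjusted p = 0.277). Pik3ap1, which links the receptors to PI3K, had 0.98 (SE 0.19, edgeR adjusted p = 0.0349) and -0.18 (SE 0.19, adjusted p = 0.559). Neither gene was called in the direct comparison of intra-S and intra-C livers. Ticam2 (TRAM), the adaptor that lets Tlr4 use Ticam1, had 3.52 and 3.74 (edgeR adjusted p = 0.0434 and 0.0311), from 7 and 2 counts in the sham livers, so that it passed the filter on low counts through the tumor-bearing livers. Of 18 kinases and ubiquitin ligases, 1 (Ripk1, log2 fold change 1.19, edgeR adjusted p = 0.0313) was higher in the intra-C livers and none in the intra-S livers, where Ripk1 had 0.69 (adjusted p = 0.0897). The 1 of 18 is a share near the 4.92% of all tested genes.

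Of 9 transcription factors of the pathway, the same 3 were higher in both comparisons. Irf8 rose by 1.61 and 1.98 on the log2 scale (edgeR adjusted p = 0.0195 and 0.00986), Irf5 by 1.48 and 1.83 (adjusted p = 0.0290 and 0.0142), and Rel (c-Rel) by 1.47 and 1.15 (adjusted p = 0.0319 and 0.0461). Irf5 and Irf8 are known from myeloid cells. Of 11 tested negative regulators, Bcl3 was called in the intra-C livers (2.07, edgeR adjusted p = 0.0293), beside 1.44 (adjusted p = 0.0550) in the intra-S livers. Irak3 was called in the intra-S livers (2.78, edgeR adjusted p = 0.0465), beside a like value of 2.70 (adjusted p = 0.0595) in the intra-C livers. Tnfaip3 (A20) was called in the intra-S livers (2.40, edgeR adjusted p = 0.0473), beside 1.20 (adjusted p = 0.225) in the intra-C livers. Its intra-S livers differed 3.34-fold, and the lower of them, at 5.05 CPM, lay near the intra-C livers at 4.48 and 5.01 CPM. Of 17 cytokines and mediators that these receptors induce, 14 were among the genes of the count table, and 8 of these passed the filter on low counts. Il1a (2.60 and 3.39, edgeR adjusted p = 0.0147 and 0.00663) and Il1b (3.78 and 3.47, adjusted p = 0.0316 and 0.0303) rose in both comparisons, and Icam1 was called in the intra-S livers (1.59, adjusted p = 0.0420), beside 1.45 (adjusted p = 0.0626) in the intra-C livers. Thus 2 of the 8 were called higher in the intra-C and 3 in the intra-S livers, and none lower. Cxcl10 was not called, at means of 1.76 CPM in sham, 0.183 CPM in intra-C and 1.30 CPM in intra-S livers.

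Many proposed endogenous ligands and other pattern recognition receptors were called higher. Of 9 proposed ligands, 6 were higher in both comparisons. S100a8 and S100a9, neutrophil proteins proposed as Tlr4 ligands, had log2 fold changes of 7.70 and 6.51 in the intra-C and 8.56 and 7.27 in the intra-S livers, with edgeR adjusted p between 0.00469 and 0.00738. Saa3 had 5.99 and 5.55 (edgeR adjusted p = 0.0235 and 0.0216), and its livers differed 3.64-fold within the intra-C and 3.65-fold within the intra-S group. Vcan, a matrix proteoglycan proposed as a Tlr2 ligand, had 5.04 and 4.10 (edgeR adjusted p = 0.0277 and 0.0343). Vcan had 6 counts in either sham liver, so it passed the filter through the tumor-bearing livers, and its intra-S livers differed 4.48-fold. Of 16 other receptors, 8 were higher in the intra-C and 9 in the intra-S livers. The macrophage scavenger and lectin receptors Mrc1 (2.30 and 2.24), Msr1 (2.14 and 2.39), Marco (3.77 and 4.34) and Clec4n (2.77 and 3.22) were among them, with edgeR adjusted p between 0.00762 and 0.0222. Nlrp3 and Clec4e, also called in both comparisons, had 2 to 5 counts per sham liver and passed the filter through the tumor-bearing livers. No gene of the 10 lists was called lower in either comparison, and none was called between intra-S and intra-C livers.

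**Figure D4:**
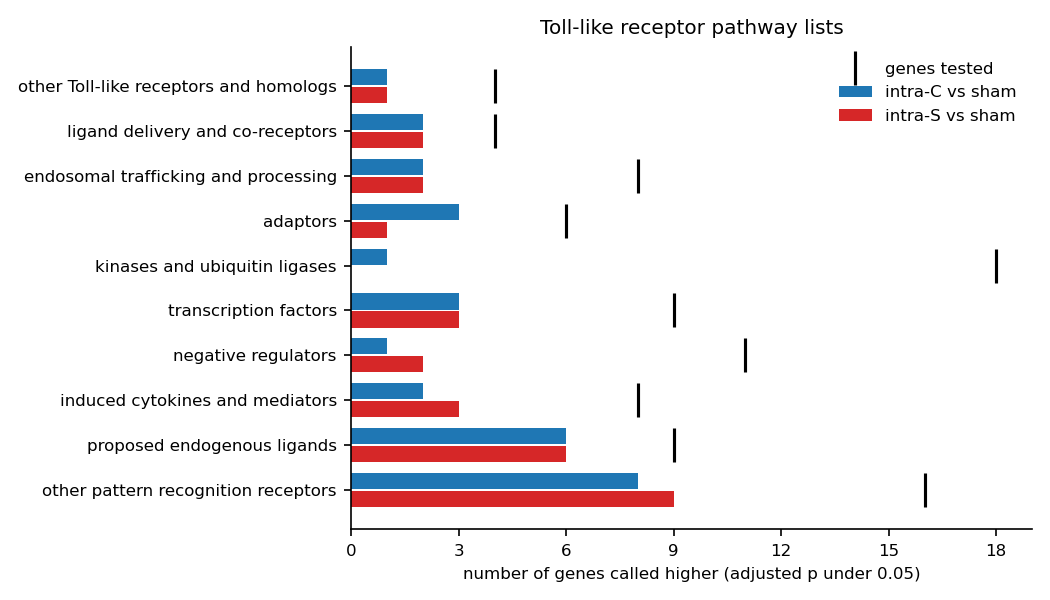
Number of genes called higher (horizontal axis, starting at 0) in each of 10 pathway lists in intra-C livers (blue) and intra-S livers (red) against sham; the black mark is the number of genes tested. Kinases and ubiquitin ligases reach 1 and 0 of 18, and other pattern recognition receptors 8 and 9 of 16.

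Markers of myeloid cells moved with the members that rose. Of 7 Kupffer cell markers, 6 were higher in the intra-C and 5 in the intra-S livers, and of 9 monocyte and macrophage markers 6 in each. All 11 neutrophil markers were called higher in both, but 6 of them had under 10 counts in both sham livers and passed the filter only through the tumor-bearing livers. The other 5 included S100a8 and S100a9. The summed Kupffer cell markers were at 161 and 153 TPM in the sham livers, 668 and 875 TPM in the intra-C livers, and 342 and 758 TPM in the intra-S livers. The summed monocyte and macrophage markers were at 146 and 168 TPM, then 511 and 702 TPM, then 504 and 755 TPM in the same order. The summed neutrophil markers were at 10.2 and 14.5 TPM in the sham livers, where Camp, Mpo and Elane were at 0, and at 898 and 2014 TPM in the intra-C and 3240 and 1381 TPM in the intra-S livers. Most of this sum was S100a8 and S100a9, at means of 549 and 640 TPM in the intra-C and 904 and 979 TPM in the intra-S livers. Within the intra-S group, Cd14, Tlr6, Tlr7 and the neutrophil sum were higher in liver 1, and the other members were higher in liver 2, as were the Kupffer cell and macrophage sums. With 2 livers such an order is a description, and the part of these cells in the receptor changes was not tested.

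Sinusoidal endothelial markers were at 38.2 and 45.8 TPM in the sham livers and between 92.4 and 142 TPM in the others, with 2 and 3 of 5 markers called higher. The top value was that of intra-S 1, where Lyve1 had 3832 counts, against 579 in intra-S 2. No marker was called in either comparison among 4 B cell, 6 conventional dendritic cell, 6 T and NK cell and 2 tested plasmacytoid dendritic cell markers. The B cell sum was at 4.19 and 4.59 TPM in the sham livers, 1.40 and 1.65 TPM in the intra-C livers, and 2.22 and 4.40 TPM in the intra-S livers, beside the fall of Tlr5. The plasmacytoid list was almost all Bst2, which many cells express, and summed to 445 and 383 TPM in the sham livers and 155 to 265 TPM in the others. Of 6 stellate and fibroblast markers 2, and of 4 cholangiocyte markers 1, were called higher in the intra-S livers and none in the intra-C livers, and of 6 hepatocyte markers 1 (Serpina1a) was higher and 1 (Cyp2e1) lower there. The hepatocyte sum was at 136146 and 129523 TPM in sham, 147079 and 115029 TPM in intra-C, and 161333 and 138245 TPM in intra-S livers, so that both intra-S livers lay above both sham livers. Most of this sum was Alb. The other markers went both ways. Cyp2e1, a cytochrome P450, was at a mean of 9477 TPM in sham, 4386 TPM in intra-C and 2434 TPM in intra-S livers, and Ttr (transthyretin) at 8920, 4331 and 6613 TPM. Apoa1 was at 13679, 20967 and 20707 TPM, Tat at 1321, 2948 and 2158 TPM, and Serpina1a at 371, 774 and 918 TPM in the same order. The median log2 fold change of the 6 was 0.49 in the intra-C and 0.71 in the intra-S livers. What part any of these had in the change of Tlr5 was not tested.

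**Figure D5:**
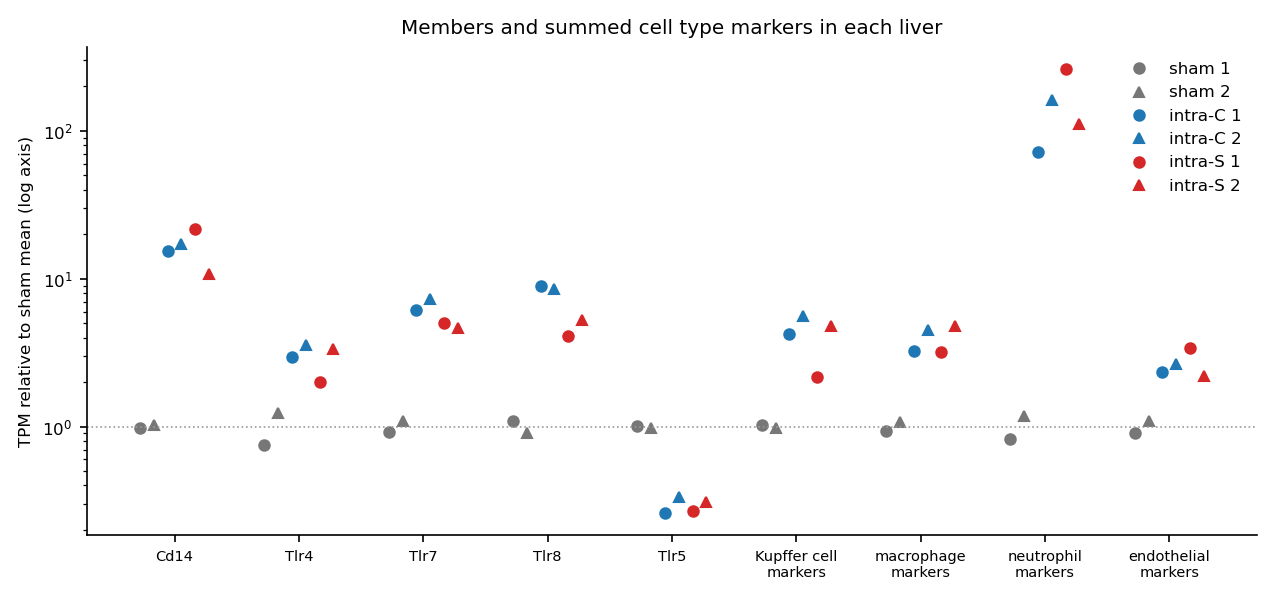
TPM of 5 members and summed TPM of 4 marker lists in each liver, divided by the mean of the 2 sham livers (vertical log axis; circles are replicate 1 and triangles replicate 2). Cd14 is at 10.8 to 21.8 times and the neutrophil markers at 72.5 to 261 times the sham mean, Tlr4 at 1.99 to 3.54 times beside 2.17 to 5.57 times for Kupffer cell markers, and Tlr5 at 0.261 to 0.333 times. Most of the neutrophil sum is S100a8 and S100a9.

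Genes with the most similar profile were named by the root mean square difference of log2 CPM, each centred on its own mean, over the 6 livers and among 9282 or 9283 other genes at a mean of 5 CPM or more. Closest to Cd14 were Cd300lf (0.25), Gpr65 (0.26) and Bmper (0.31). Cd300lf and Gpr65 encode receptors of leukocytes. Among the genes close to Tlr7 were Lbp (0.13) and Fga (0.18), and closest to Tlr8 were Itih3 (0.11), Fga (0.14) and the macrophage scavenger receptor Cd163 (0.20). Lbp, Fga and Itih3 are plasma proteins made by hepatocytes, so the profiles most like those of Tlr7 and Tlr8 included genes of both cell types. Closest to Tlr2 were Frmd4a (0.11), Fcna (0.12) and Serpinb6a (0.12), and to Tlr4 Oxct1 (0.13), Filip1l (0.18) and Elapor1 (0.20). Closest to Tlr5 were Aldh5a1 (0.11), Echdc3 (0.11) and Hdac11 (0.12), of which the first encodes a mitochondrial enzyme.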

How the data were processed

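Polyadenylated RNA of 6 mouse livers was sequenced. According to the study's methods, the authors aligned reads to mm10 with HISAT2 2.1.0 and counted uniquely mapped exon reads with featureCounts (Subread 2.0.6). The deposited raw counts are not normalized, and the deposited TPM values are scaled by the authors for gene length and total. Annotation and strand setting are not given in the sources used here. All columns were matched to a liver by name.

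Counts were tested with edgeR 4.0.16 in R 4.3.3 (TMM, filterByExpr with a count minimum of 10, quasi-likelihood fit over 6 livers with 3 residual degrees of freedom, two-sided, Benjamini-Hochberg). A count of 0 allows up to 3 counts, or 0.0679 to 0.0928 CPM at these depths. These limits cover counting error only. Same-group livers differed beyond sampling noise (chi-square per degree of freedom 24.8 to 337), so none were merged. The members and the 172 entries of the pathway and marker lists were chosen with earlier results of these data known. The text names all members, up to 4 called genes per pathway list by smallest adjusted p, 3 profile neighbours per called member (1 of those of Tlr7 is not reported here), and, outside this rule, genes that a result turned on, such as Ly96, Unc93b1, Nlrp3, Clec4e and Alb, which were chosen after their values were seen. Positions are from RefSeq (GRCm38.p6, 10 of 10 symbols matched) and overlaps from GENCODE M21. Alternatives were DESeq2 1.42.0, limma 3.58.1 on log2(TPM + 1) and log2(TPM + 0.1), other filters and scalings, a robust fit, a replicate block, only the 2 groups compared, and each liver left out. TMM without the 100 most abundant genes was added after seeing the data.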

Additional observations from a re-analysis of the deposited data

How the results depend on the processing

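Of 432 alternative values of the members' log2 fold changes, 352 kept direction and call, 57 lost the call, 6 gained one and 17 changed sign. None of the 17 was a called value. The count of 5 members higher in intra-C livers became 3 with library size without TMM and with limma on log2(TPM + 1) and log2(TPM + 0.1), and 0 to 6 over the 6 fits with a liver left out. The count of 5 in intra-S livers became 3 under the same settings and with only the 2 groups compared, and 0 to 6 with a liver left out. The 1 member lower became 0 in intra-S livers with only the 2 groups compared, and 0 to 1 in either comparison with a liver left out. Between intra-S and intra-C livers, leaving out a liver gave 0 to 2 calls. A group left with 1 liver was assumed to vary like the others. Without sham 1 or sham 2 none of 17584 or 17494 genes was called in the comparisons with sham, so these fits lost all calls, not those of the members alone. Library size without TMM moved the median log2 fold change of all genes to -0.25 and -0.23. The cause of the other changes was not tested.

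Deviations of same-numbered livers showed little correlation between groups (-0.032, 0.083 and 0.043). With so few livers per group, these values cannot exclude shared handling of same-numbered livers, and the labels do not say whether the numbers mark pairs. With the replicate block, 4 and 5 members were higher in the comparisons with sham, with Tlr2 lost in intra-C livers (adjusted p = 0.0525 from edgeR), and 0 lower in both, with Tlr5 lost. With DESeq2, 5 and 6 were higher, with Tlr1 gained in intra-S livers.

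Changed signs were as follows. Tlr3 in intra-S against sham lay between -0.29 and 0.94 without a liver. Between intra-S and intra-C, without a liver, values lay between -0.22 and 0.78 for Tlr1, -0.17 and 0.29 for Tlr2, -0.82 and 0.41 for Tlr3, -0.54 and 0.10 for Tlr4, -0.058 and 0.18 for Tlr5, -0.12 and 0.48 for Tlr6, and -0.53 and 0.58 for Cd14. On log2(TPM + 1) and log2(TPM + 0.1) they were -0.027 and -0.041 for Tlr2, -0.016 and -0.036 for Tlr5, and -0.080 and -0.082 for Cd14. The cause of these changes of sign was not tested. Counts per liver ranged from 38 to 162 for Tlr1 and from 102 to 2455 for Cd14.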
